A study of Mus musculus with 12 samples.

Results

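Acute phase and complement genes were followed in HT22 cells exposed to mesaconitine (MA), a diester diterpenoid alkaloid of Aconitum plants. HT22 is an immortalised line from mouse hippocampus with a wild-type genotype, and every library came from this single line. Control cells received 0 μM MA and treated cells 800 μM MA, each for 72 h. Of each group, 3 input libraries of polyadenylated RNA and 3 libraries from immunoprecipitation (IP) with an antibody against N6-methyladenosine (m6A) were sequenced, 12 in all. The members are the 9 genes C3, Cfb, C1s1, Serping1, Ptx3, Saa3, Lcn2, Hp and Steap4, found by symbol among the 25239 genes of the expression table and the 2643 m6A peaks of the peak table. All 9 were rows of the expression table, and 8 had a fold change there. They were chosen with their fold changes known, so these values describe the members and are not tested here.

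The complement system is a cascade of plasma and tissue proteins that tags surfaces for clearance. C1s is a protease of the classical pathway, factor B (Cfb) forms the convertase of the alternative pathway, C3 is the component on which the pathways meet, and C1 inhibitor (Serping1) restrains C1s. Acute phase proteins are secreted by the liver and by many other cells during inflammation, chiefly in response to interleukin 6, interleukin 1 and tumour necrosis factor, through STAT3, C/EBP and NF-κB factors. Serum amyloid A3 (Saa3) is an apolipoprotein, lipocalin 2 (Lcn2) binds bacterial siderophores that carry iron, haptoglobin (Hp) binds free haemoglobin, and pentraxin 3 (Ptx3) is a soluble pattern receptor that also binds C1q. Steap4 is a membrane metalloreductase of iron and copper that is induced by inflammatory cytokines.

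A limit of direction bears on every value below. The expression table does not name the numerator of its fold change, and its sign was reversed here to read MA over control. With the reversal, the lysosomal genes Lamp1, Lamp2, Ctsb and Ctsd are higher after MA, the direction the paper gives for lysosomal genes as a group. The paper also measured these genes, Rab7 and Tsc1 by quantitative PCR and reports raised levels of multiple autophagy genes after MA. All 6 of the genes so measured are higher under the reversal. The paper does not keep to a single reading, because for the m6A regulators it follows the sign as deposited. Alkbh5 and Igf2bp2, which it describes as lower after MA, are higher under the reversal, and Mettl14, which it describes as higher, is lower. The pooled reads of the peak table give a further reading. Over 1823 peaks with at least 20 reads in each group, IP reads after MA, set over those of control on the log2 scale, had a Spearman's rho of 0.29 with the reversed fold change of the gene, and input reads a rho of 0.01. These points share the gene and its libraries, so the values are descriptions only, and they also leave unnamed whether input or IP libraries gave the expression comparison. If IP libraries gave it, the levels below are those of immunoprecipitated RNA. If the deposited sign already reads MA over control, every direction below turns round.

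The promoters of the members are shown first because the regulatory sequence is where the known inducers of these genes act. For C3, Ptx3, Saa3, Lcn2, Steap4 and C1s1, the 250 bases before the annotated start were taken from the RefSeq promoters of build GRCm38.p6, written from 5′ to 3′ on the strand of the gene. Cfb, Hp and Serping1 had no entry. The windows are C3 at chr17:57228137-57228386, minus strand, Ptx3 at chr3:66219637-66219886, plus strand, Saa3 at chr7:46715677-46715926, minus strand, Lcn2 at chr2:32387740-32387989, minus strand, Steap4 at chr5:7960222-7960471, plus strand, and C1s1 at chr6:124542360-124542609, minus strand. Distances are counted from the RefSeq start. By the GENCODE M21 spans given below, the Lcn2 window lies within its gene, and the Saa3 and Steap4 windows overlap the edge of theirs. Capitals mark the matches to TTGCNNAA, a C/EBP-type motif, on either strand.
C3 promoter: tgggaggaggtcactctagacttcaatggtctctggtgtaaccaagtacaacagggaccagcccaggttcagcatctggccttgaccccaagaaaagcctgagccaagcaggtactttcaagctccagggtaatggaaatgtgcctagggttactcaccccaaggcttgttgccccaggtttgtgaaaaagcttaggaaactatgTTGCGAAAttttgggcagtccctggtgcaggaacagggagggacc
Ptx3 promoter: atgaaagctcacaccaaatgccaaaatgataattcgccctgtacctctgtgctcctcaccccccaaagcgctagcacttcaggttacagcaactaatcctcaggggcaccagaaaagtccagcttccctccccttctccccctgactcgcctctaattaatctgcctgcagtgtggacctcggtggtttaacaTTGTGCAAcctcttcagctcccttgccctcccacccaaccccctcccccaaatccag
Saa3 promoter: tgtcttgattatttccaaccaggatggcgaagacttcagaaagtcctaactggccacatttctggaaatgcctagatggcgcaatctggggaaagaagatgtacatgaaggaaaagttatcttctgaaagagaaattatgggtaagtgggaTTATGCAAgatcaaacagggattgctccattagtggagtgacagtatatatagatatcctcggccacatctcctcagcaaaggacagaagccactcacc
Lcn2 promoter: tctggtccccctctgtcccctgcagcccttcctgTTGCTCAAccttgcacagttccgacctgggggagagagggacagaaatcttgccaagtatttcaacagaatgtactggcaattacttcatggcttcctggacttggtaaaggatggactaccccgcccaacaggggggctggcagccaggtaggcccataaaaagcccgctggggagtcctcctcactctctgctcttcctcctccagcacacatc
Steap4 promoter: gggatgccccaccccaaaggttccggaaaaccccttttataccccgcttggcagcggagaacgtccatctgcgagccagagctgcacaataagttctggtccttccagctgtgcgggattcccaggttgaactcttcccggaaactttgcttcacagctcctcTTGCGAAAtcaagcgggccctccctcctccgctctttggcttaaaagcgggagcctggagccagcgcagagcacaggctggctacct
C1s1 promoter: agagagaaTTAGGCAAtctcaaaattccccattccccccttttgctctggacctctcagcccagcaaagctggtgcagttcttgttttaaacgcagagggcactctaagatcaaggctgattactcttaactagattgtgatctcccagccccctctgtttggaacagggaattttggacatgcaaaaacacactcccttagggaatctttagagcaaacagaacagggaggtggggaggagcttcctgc

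The C/EBP-type motif TTGCNNAA was found in the windows of 6 of the 6 members, against 9.56% of all 32851 promoters of the same length. In C1s1 it lay in the window of the first of 2 annotated starts. The matches began 45 bases before the start in C3, 57 in Ptx3, 87 in Steap4, 99 in Saa3, 216 in Lcn2 and 242 in C1s1. Both C3 and Steap4 carried the same letters, TTGCGAAA. The NF-κB-type motif GGGANNNNCC was found for C3, Steap4 and C1s1 and in 17.6% of all promoters, and the C1s1 match lay in the window of its other start. The STAT-type motif TTCNNNGAA was found for Steap4 only among these members and in 7.02% of promoters, the interferon-response-type motif GAAANNGAAA for Saa3 only and in 2.98%, and CTGGGA, the core of the interleukin 6 response element, for Steap4 and C1s1 and in 27.0%. TATAAA matched Steap4 only (12.4% of promoters), and TGANTCA, the AP-1-type motif, matched 0 of the 6 (6.75% of promoters). All 7 motifs were searched on both strands, and no C/EBP-type match overlapped another motif. The motifs were picked after the sequences had been seen, and further spellings of the C/EBP, NF-κB and STAT motifs were also tried. C1s1 had 2 windows, while the shares count single promoters. The shares are therefore no measure of enrichment in the members. A match says only that these letters are present. C1s1, whose level differed by less than its error, held the C/EBP-type letters like the genes that were lower.

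**Figure D1:**
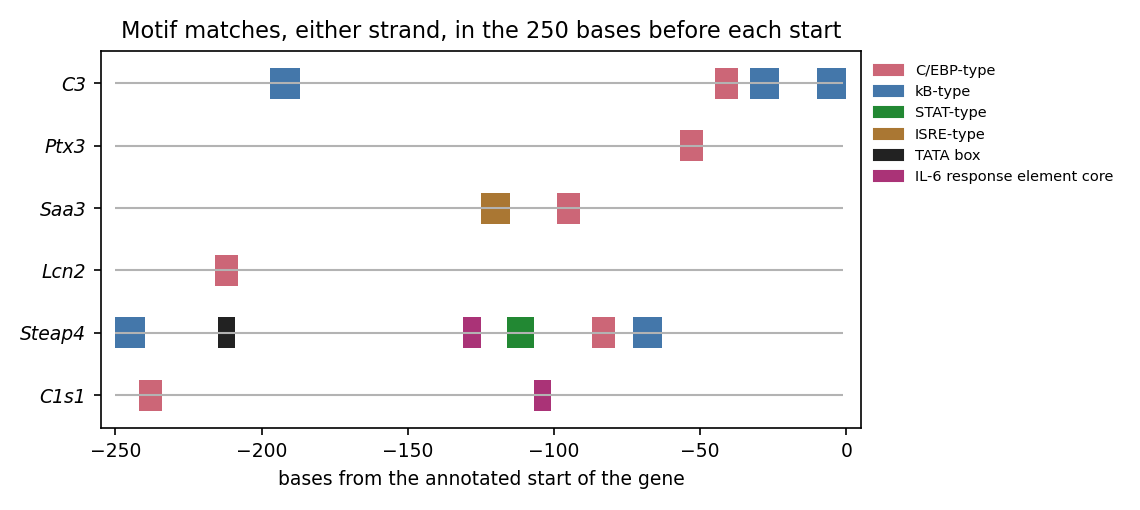
Motif matches in the 250 bases before the annotated start of 6 members, with the distance from the start in bases on the horizontal axis and colours for the motif. For C1s1 the window of its first start is drawn. The C/EBP-type match, present in 6 of 6 windows, lies between 242 bases (C1s1) and 45 bases (C3) before the start. The motifs were picked after these sequences had been seen.

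After MA the 8 measured members were all at a lower level than in control cells, with a median log2 fold change of -1.48. Over the 16167 genes tested the median was -0.01, and 51.8% of them were lower. The values ran from -4.52 for Steap4 to -0.11 for C1s1. Calls throughout needed a change of more than 1.2-fold and an unadjusted p under 0.05, and 5 members by that rule (Steap4, Saa3, Lcn2, Ptx3 and C3) were lower. It called 7.07% of all genes tested lower, and with the adjusted p it called 6.26%. Since the members were chosen on this contrast, nothing is read from their count. The members did not change by the same amount. Steap4, Saa3 and Lcn2 were 23.0-fold, 11.0-fold and 4.72-fold lower, and Ptx3 and C3 were 2.46-fold and 2.17-fold lower. In bulk RNA, fewer cells that express a gene and less RNA of it per cell cannot be told apart.

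**Figure D2:**
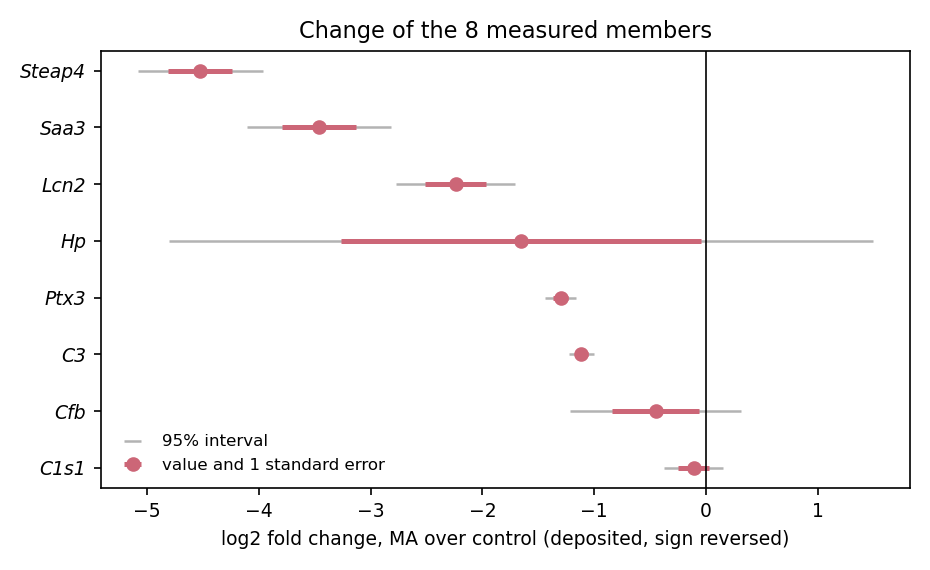
Log2 fold change (MA over control, horizontal axis) of the 8 measured members, with thick bars for 1 standard error and thin bars for the 95% interval. Steap4 at -4.52, Saa3 at -3.46 and Lcn2 at -2.24 lie farthest from 0, and the thin bars of Hp, Cfb and C1s1 cross 0.

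The base mean of a gene is the mean over libraries of its count after division by a size factor that evens out depth. Values of single libraries were recovered for the less abundant members, because a base mean is a sum of whole counts, each worth a fixed amount per library. The 154 genes with a single count in all showed exactly 6 such amounts, 3 from each group, so 6 libraries stood behind the comparison, with size factors from 0.938 to 1.11. For Saa3, Lcn2, Steap4, Cfb and Hp, 1 combination of whole counts met the base mean and the fold change at least 100 times more closely than the next, or was the only one to meet the base mean. The libraries of a group have no link to the numbers in the labels. The share of all genes whose groups do not overlap was not obtained. A lack of overlap, here and for the listed genes below, is therefore a description only. C3, Ptx3 and C1s1 are too abundant for this, and only the group means that follow from base mean and fold change are given for them.

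C3 (chr17:57203970-57228136, minus strand, 41 exons, GENCODE M21 on GRCm38, the mm10 build of the files) was the most abundant complement member. Its normalised count was 58742 in control and 27077 after MA, with a log2 fold change of -1.12 ± 0.06 (standard error, 3 libraries per group). It ranked 94 of all 25239 genes by base mean. Among the 205 genes with a base mean within 2-fold of it, 1.46% had a lower fold change. No 50-base stretch of its transcript was shared with another gene.

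Cfb (chr17:34856374-34862518, minus strand, 18 exons), the partner of C3 in the alternative pathway, was far scarcer. The control libraries held 76, 54 and 54 counts and the MA libraries 49, 44 and 32. The normalised counts, 52.3 to 68.6 in control and 34.1 to 48.3 after MA, did not overlap, but the gap was small beside the spread. The log2 fold change was -0.45 ± 0.39, and its 95% interval (normal, from the standard error) ran from -1.21 to 0.31. Of the 50-base stretches of Cfb, 81.4% also occur in Gm20547, an annotated gene that spans the same locus, so its counts depend on how the authors' counting split the reads.

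C1s1 (chr6:124530345-124542359, minus strand, 12 exons), the protease of the C1 complex, differed by less than its error. The implied means were 11572 in control and 10702 after MA, a log2 fold change of -0.11 ± 0.13. Its standard error was larger than that of 94.4% of the 1427 genes within 2-fold of its base mean, whose median was 0.07, so its libraries spread more than is usual at that level. Its paralog C1s2 shares 24.3% of its 50-base stretches. Serping1 (chr2:84765387-84775444, minus strand, 8 exons), the inhibitor of C1s, was listed at 0 without a fold change. It was 1 of 9061 genes at 0, and whether it is silent in HT22 cells was not tested.

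Ptx3 (chr3:66219910-66225805, plus strand, 3 exons) was the most abundant member per length of its longest protein-coding transcript, with an implied mean in control of 17864 normalised counts per kb, ahead of C3 with 11437 and C1s1 with 3928. In control, Lcn2 reached 395 per kb, Steap4 131, Saa3 122, Cfb 21.3 and Hp 9.13. The gap between Steap4 and Saa3 was smaller than the spread of Saa3 between control libraries. After MA the levels per kb were 7247 for Ptx3, 5272 for C3, 3633 for C1s1, 83.7 for Lcn2, 15.6 for Cfb, 11.1 for Saa3, 5.68 for Steap4 and 2.90 for Hp. The order thus held for the upper genes, while Cfb came to lie above Saa3 and Steap4. The normalised count of Ptx3 was 33906 in control and 13755 after MA. The log2 fold change was -1.30 ± 0.07, and 0.375% of 534 genes of like base mean had a lower value. The neuronal pentraxins of the same family were scarcer. Nptx1 and Nptx2 were listed at 0, and the receptor Nptxr fell by 0.29 on the log2 scale.

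Saa3 (chr7:46711998-46715700, minus strand, 2 exons in the longest transcript) held 238, 304 and 291 counts in the control libraries and 32, 23 and 16 in the MA libraries. Normalised, this was 268 ± 46.1 in control and 24.2 ± 7.26 after MA (SD, n = 3 each). The highest MA library lay far under the lowest control library, at 31.6 against 215. The log2 fold change was -3.46 ± 0.33. A 3.91% share of its stretches occurs in transcripts of other genes such as Pik3c2a.

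Lcn2 (chr2:32384633-32388252, minus strand, 6 exons) held 483, 354 and 303 counts in control and 98, 72 and 54 after MA. The means were 362 ± 66.5 and 76.5 ± 19.6 normalised counts (SD, n = 3 each), and the groups were well apart. Its log2 fold change was -2.24 ± 0.27. As many as 94971 combinations of counts met the base mean of Lcn2, and the one given was the closest to its fold change.

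Steap4 (chr5:7960457-7982213, plus strand, 5 exons) showed the widest gap of the members. The control libraries held 435, 458 and 395 counts and the MA libraries 15, 15 and 22. The means were 412 ± 27.4 and 18.0 ± 4.75 normalised counts (SD, n = 3 each), and the highest MA library, at 23.4, lay far under the lowest control library, at 393. The log2 fold change was -4.52 ± 0.29. Among the 10430 genes tested with a base mean of at least 100, ordered from the lowest fold change, Steap4 had rank 2, Saa3 rank 4, Lcn2 rank 12, Ptx3 rank 53 and C3 rank 67, and 90 of these genes (0.863%) were lower by more than 1 on the log2 scale.

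Hp (chr8:109575128-109579172, minus strand, 5 exons) was near the limit of detection. The control libraries held 10, 13 and 15 counts, and the MA libraries 0, 0 and 11. All of the counts after MA thus came from a single library, whose normalised count of 11.7 lay within the control range of 9.02 to 15.2. The log2 fold change of -1.66 ± 1.61 barely exceeded its standard error. Without that library no count was left after MA.

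**Figure D3:**
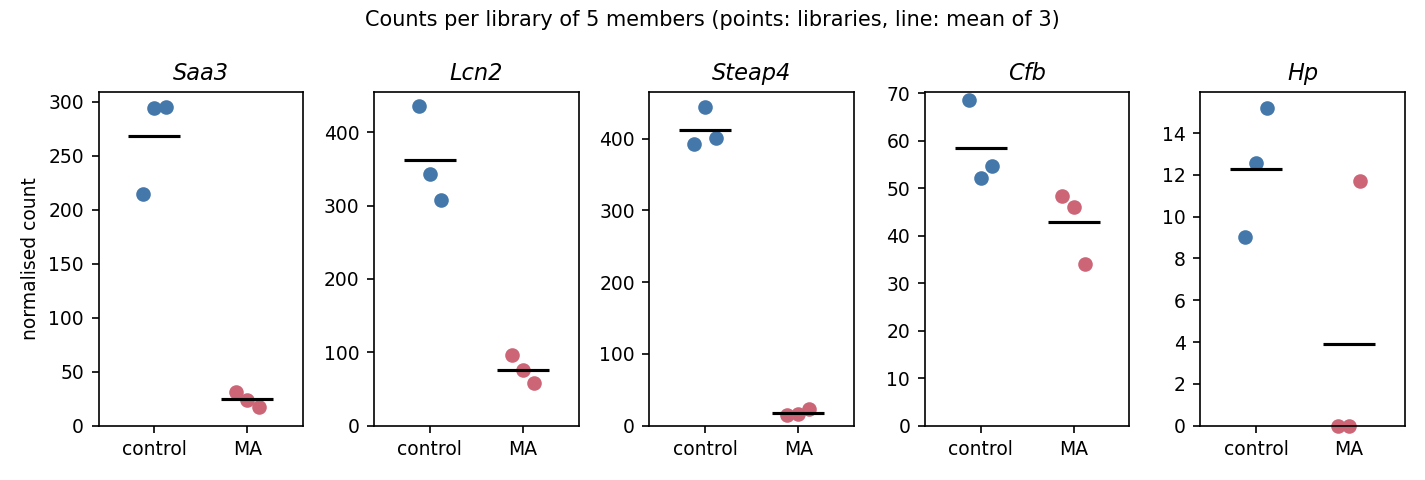
Normalised counts of 5 members in each library (points) with the mean of 3 (line), control in blue and MA in red, each panel on its own axis from 0. The groups are separate for Saa3, Lcn2, Steap4 and, narrowly, Cfb, and overlap for Hp. Nothing is read from this, as the members were chosen on this contrast and no share over all genes is given.

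**Figure D4:**
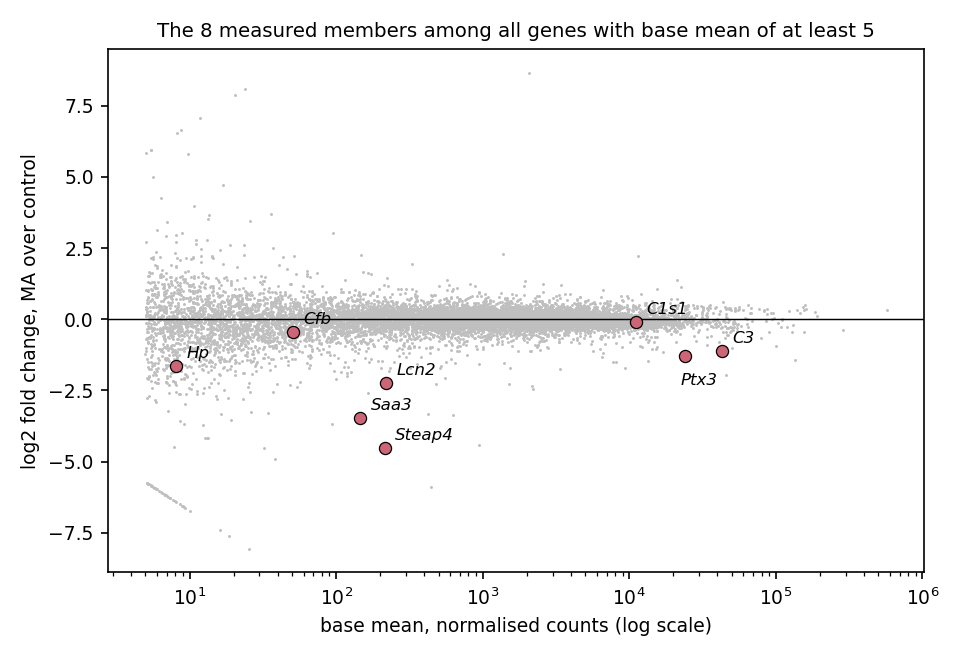
Log2 fold change (MA over control) against base mean on a log scale for all genes tested with a base mean of at least 5 (grey) and the 8 measured members (red). Steap4, Saa3 and Lcn2 lie well under the cloud of genes of like level, Ptx3 and C3 under its right-hand part, and C1s1 and Cfb within it.

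The inducers of the acute phase response were examined with a list of 37 cytokines, receptors and transcription factors. Of its 32 genes tested, 10 were lower and 0 higher after MA, against 7.07% and 6.8% of all genes called lower and higher. Among its 27 genes with a base mean of at least 50, 9 were lower, where 8.95% of such genes were called lower and 9.39% higher. The median of the 32 genes was -0.17. With the adjusted p, 7 were lower and 0 higher, beside 6.26% and 5.7% of all genes.

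Il6 itself, the main inducer of acute phase genes, held 90, 96 and 38 counts in control and 22, 29 and 17 after MA. Its control libraries were uneven, yet none reached down to an MA library. The log2 fold change was -1.60 ± 0.52 (adjusted p = 0.0174, DESeq2's Wald test in the deposited table). Of the receptor chains, Il6st (gp130, shared by the interleukin 6 family) fell by 0.52 ± 0.05 and Osmr, the oncostatin M receptor, by 0.78 ± 0.08. Il1r1, the signalling receptor of interleukin 1, fell by 0.62 ± 0.15. These chains receive the signals that raise the members in other cells. Cebpd, a C/EBP factor that is itself induced in inflammation, fell by 0.78 ± 0.10. Socs3 and Tnfaip3, feedback inhibitors of STAT3 and NF-κB signalling, fell by 0.42 and 0.51 with adjusted p of 0.163 and 0.0665. Tnfrsf1b and Il1rap were also among the 10. The factors Stat3 (-0.14 ± 0.07), Nfkb1 (-0.19 ± 0.11) and Rela (0.12 ± 0.08) did not pass the rule. Cebpb had a fold change of 1.48 ± 0.99 on the log2 scale and no p-value in the table.

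Among 27 other complement components and proteases, 11 were at 0 and 16 were tested, with 4 lower and 0 higher, beside 7.07% and 6.8% of all genes tested. With the adjusted p, 2 were lower. Colec12, a membrane collectin, fell by 0.33 ± 0.06, C1rb, a protease of the C1 complex, by 0.35 ± 0.09, and Masp1, a protease of the lectin pathway, by 0.35 ± 0.16. The call of Masp1 did not hold with the adjusted p (0.137). C2, the classical pathway counterpart of Cfb, held 7, 0 and 16 counts in control and 0 in each MA library, at least 7.13-fold lower when the MA group is set at a floor of 3 counts over its libraries. Without the control library of 16 counts the bound was 3.17-fold, and the adjusted p of C2 was 0.184. C1ra and C1s2, paralogs of C1rb and C1s1, had values of -0.22 ± 0.07 and -0.22 ± 0.08 and missed the fold threshold. Hc (C5), the start of the terminal pathway, had a base mean of 241 and a value of 0.16 ± 0.29, which did not pass the rule.

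Of 17 complement regulators, 9 were at 0, 8 were tested, 2 were lower (1 with the adjusted p) and 0 higher, where 7.07% of all genes were called lower. Clu (clusterin), a chaperone that blocks the terminal complex, fell by 1.06 ± 0.19 (adjusted p = 1.74e-06, DESeq2 in the deposited table). Cr2 held 0, 15 and 10 counts in control and 0 in each MA library, at least 7.75-fold lower at the floor of 3 counts. Without the control library of 15 counts the bound was 4.63-fold, and the adjusted p of Cr2 was 0.156. The surface regulators Cd55 (0.07 ± 0.19) and Cr1l (-0.11 ± 0.19) did not pass the rule. Of 9 complement receptors, 7 were tested and 2 were higher, also with the adjusted p, beside 6.8% of all genes. Itgb2, the beta chain of complement receptor 3, held 47, 82 and 70 counts in control and 184, 140 and 159 after MA. Its log2 fold change was 1.37 ± 0.32, and all MA libraries lay above all control libraries. Its partner chain Itgam was near 0, with a base mean of 1.80. C1qbp, a mainly mitochondrial protein that binds C1q, was higher by 0.56 ± 0.06.

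Of 37 other acute phase proteins, 13 were at 0 and 24 were tested, with 4 lower and 2 higher, where 7.07% and 6.8% of all genes were called. With the adjusted p, 2 were lower and 1 higher. Orm1 (orosomucoid) held 10, 29 and 16 counts in control and 0 in each MA library, at least 17.0-fold lower at the floor of 3 counts. Cp, the copper ferroxidase ceruloplasmin, fell by 0.59 ± 0.06. Lbp, which presents lipopolysaccharide, held 82, 101 and 35 counts in control and 40, 10 and 24 after MA. The groups overlapped for Lbp after normalisation, and its adjusted p was 0.103. Higher were the metallothionein Mt1, by 0.67 ± 0.11, and the protease inhibitor Serpina3n, with 38, 10 and 10 counts in control and 48, 44 and 41 after MA. The adjusted p of Serpina3n was 0.17. The share called higher was thus near that of all genes. The median of the list was -0.34 over the 24 genes tested but -0.16 over the 4 with a base mean of at least 50.

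None of the relatives of Steap4 was called lower. Of 13 genes of the STEAP family and of iron handling, all were tested, 0 were lower and 3 higher, also with the adjusted p, beside 6.8% of all genes called higher. Steap3, the ferrireductase of endosomes, was higher by 0.51 ± 0.14, Slc11a2 (DMT1), which moves the reduced iron across the endosomal membrane, by 0.58 ± 0.14, and Ftl1, the ferritin light chain, by 1.06 ± 0.08. Ftl1 has near-identical copies in the genome, so its counts are uncertain. Steap1 and Steap2 had values of -0.23 ± 0.14 and -0.29 ± 0.19, and neither passed the rule. Hmox1, the haem oxygenase, missed the fold threshold at 0.26 ± 0.10.

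**Figure D5:**
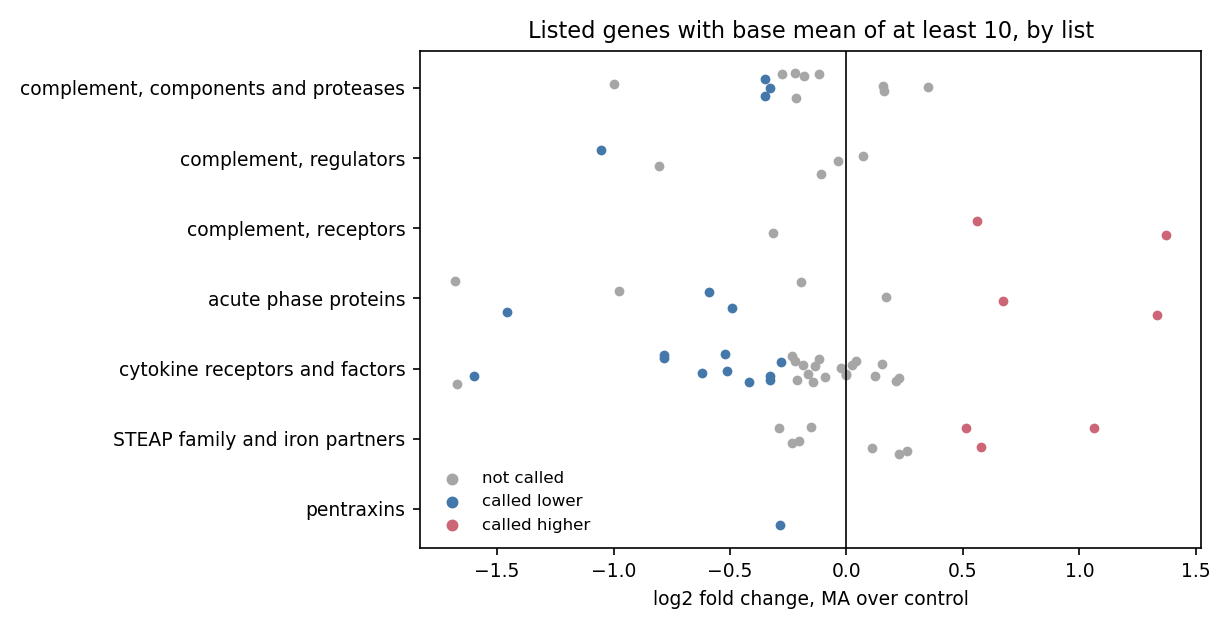
Log2 fold change (MA over control, horizontal axis) of 69 listed genes tested with a base mean of at least 10, by list, with called genes in blue (lower) and red (higher) and the vertical scatter within a list only for legibility. A further 32 tested genes with a base mean below 10, of which 3 (C2, Cr2 and Orm1) were called, are not drawn.

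The labelled cell type was checked against marker lists. Beside the calls in these lists, 7.07% of all genes tested were called lower and 6.8% higher. Of 15 neuronal markers, 8 were at 0, among them Map2, Snap25 and Dcx, while Tubb3 had a base mean of 473 and Eno2 of 534. Of the 7 neuronal markers tested, 2 were lower and 0 higher. Tubb3 fell by 0.40 on the log2 scale, and the other was the scarce Syt1. The hepatocyte markers, which matter for liver-type proteins, had 6 of 10 at 0 and a summed implied mean of 17.6 in control and 8.62 after MA, and 0 of 4 tested were called. Of the microglia and macrophage markers, 3 of 10 were at 0 (P2ry12, Tyrobp and Adgre1), and the summed mean was 605 in control and 811 after MA. Of the 7 tested, 1 was higher and 1 lower, Cd68 by 1.94 and Tmem119 by 0.72 on the log2 scale. The rise of this sum was carried by Cd68, with a base mean of 327. Of 8 astrocyte markers, 2 were at 0, Gfap had a base mean of 0.646, and the summed mean was 4747 in control and 3613 after MA, with 2 of 6 tested lower and 0 higher. Slc1a3 fell by 0.48 and Sox9 fell by 0.38 on the log2 scale. Fibroblast and mesenchymal markers all had counts, though Lum was near 0 with a base mean of 1.35. Col1a1 had a base mean of 100160, and Col1a2, Col3a1 and Vim lay above that. Of the 10 fibroblast and mesenchymal markers, 5 were lower and 0 higher, and their summed mean was 642899 in control and 403385 after MA. The sums were carried by the 3 collagens, while Vim (-0.04), Pdgfra (-0.15) and Pdgfrb (0.06) did not pass the rule. The part of such shifts in the members' values was not tested.

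The m6A data gave no value for the members, since none of the 9 had a peak among the 2643 used here. The paper reports more m6A peaks than these, so a member may carry a peak that could not be seen here. Of the 749 genes with a base mean of at least 10000, the class of C3, Ptx3 and C1s1, 8.14% had a peak among those used. In the class from 100 to 1000, which holds Saa3, Lcn2 and Steap4, 18.5% of 3979 genes had a peak. From 10 to 100, the class of Cfb, it was 7.76% of 1997. Genes of like level therefore often had no such peak either, and the absence of a peak here does not show the absence of m6A.

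On the listed pathway genes there were 12 peaks in 9 genes. Of these peaks 5 were higher and 0 lower after MA, while 25.2% of all 2642 peaks tested were higher and 5.94% lower. The 5 peaks lay in 4 genes. Itgb2 carried a pair, at chr10:77561030-77561079 and chr10:77561105-77561154 in the same coding exon of GENCODE M21. The log2 changes that the authors deposited from their model were 1.04 and 1.48. They are not plain differences of the deposited log2 IP over input, which went from -0.19 to 1.39 and from -0.34 to 1.40. For the second, the pooled reads were 69 input and 42 IP in control and 56 input and 163 IP after MA. This was the only called peak of the 5 that kept an adjusted p under 0.05 (0.0076). The other higher peaks, with the change from the same model, were on Steap2 (1.42), Cebpg (0.89) and Slc11a2 (0.74). Reads are pooled over replicates in this table, so the spread between libraries could not be examined. Lif, a cytokine of the interleukin 6 family, had 3 peaks and Masp1, Cfp, Csmd1 and Csmd2 1 each, none of which passed the rule.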

How the data were processed

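The series holds 12 libraries of HT22 cells, and both tables used here are comparisons of groups. The authors aligned reads to mm10 with HISAT2, quantified with StringTie and compared groups with DESeq2. The base mean (a normalised signal), the log2 fold change, its standard error, the Wald statistic (a score) and p-values are all as the authors deposited them. For m6A, the authors called peaks with exomePeak2, and the deposited counts of reads per peak are pooled by group, as are the log2 ratios of IP to input. Tool versions are not given in the sources used here. No column of single libraries was given (0 were left out), so the planned count model was not run.

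From the tables, with Python 3.11.15, numpy 2.4.6, pandas 2.3.3 and scipy 1.17.1, the sign of the expression change was reversed, and listed genes and peaks were counted where they changed by more than 1.2-fold with an unadjusted p under 0.05. Whole counts per library were recovered by searching for counts that sum to the base mean and refitting the fold change in a negative binomial model with a weak prior. The search was tried on 33 genes simulated with the same model that it fits. The closest combination held the true counts in all 33, and 32 met the rule for acceptance. The simulation could not show whether that model matches the authors' fit. Shared sequence was measured as 50-base stretches in GENCODE M21 transcripts. Of promoter motifs, 7 are given, and further spellings of the C/EBP, NF-κB and STAT motifs were also tried. The members and lists were chosen with earlier results of these data known. Listed genes are named if called, up to the 6 with the smallest p per list and direction, and others named were chosen after their values were seen. Some genes that the counts include are not reported here by name. Nothing in the labels says that replicates came from separate cultures, so p-values may measure technical spread. Adjusted p-values are DESeq2's, as deposited.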

Additional observations from a re-analysis of the deposited data

How the results depend on the processing

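The median log2 fold change of the 8 measured members was -1.48 as deposited and -1.48 after centring on the median of genes with a base mean of at least 10. By their standard error 7 members were lower, and by the 95% interval 5 were. Nothing is read from these counts, since the members were chosen on this contrast and no share over all genes is given for these cuts. Leaving out each library in turn, an alternative chosen after seeing the data, the log2 ratio of normalised means ran from -4.76 to -4.40 for Steap4, from -3.70 to -3.27 for Saa3, from -2.44 to -2.07 for Lcn2, from -0.55 to -0.31 for Cfb, and from -1.83 to -1.07 for Hp, for which no ratio could be formed without the only MA library that held counts. Of the 101 pathway list genes tested, 21 were lower and 7 higher, beside 7.07% and 6.8% of all genes tested. With the adjusted p, 13 were lower and 6 higher, beside 6.26% and 5.7% of all genes. C2, Cr2, Masp1 and Lbp were among those lost, as was Serpina3n among the higher genes. Above 1.5-fold, 10 were lower and 4 higher, and no share over all genes is given for that threshold. The 5 listed peaks called higher became 1 with the adjusted p and 3 with at least 20 reads in each group. The smaller counts under these settings follow from their stricter thresholds.

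No paired analysis was possible because the tables hold no column for a single library, and the recovered counts carry no replicate number, so a replicate block and fits without a library were not run across genes. The numerator of the expression comparison and the libraries behind it are not named, total depth is unknown, and the few counts of Hp, C2 and Cr2 limit what can be said of them.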
